A study of Mus musculus with 5 samples.

Results

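The comparison set C2C12 cells after 4 days in differentiation medium against the same line after 1 day, to find the microRNAs (miRNAs) that still moved once differentiation had begun. Its members were all probes on the array that carry a mouse miRNA name, 343 of 1448 probes that are neither controls nor empty spots, measured on 4 arrays of day 4 and 4 arrays of day 1. C2C12 is an established mouse myoblast line whose cells leave the cell cycle and fuse into myotubes when serum is lowered. In the series as a whole, total RNA was extracted with TRIzol at 5 stages (proliferating at 70 to 80% confluence, confluent, and after 1, 2 and 4 days in 2% horse serum), with 4 arrays each. Every array set a sample beside the same kind of reference, a pool of RNA from 4 proliferating replicates, and the labels give 2 replicates per stage in each dye. All groups share the unmodified line and the pool, and day 1 and day 4 differ by the time spent in 2% horse serum.

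miRNAs are short RNAs that lower the stability and translation of messenger RNAs that pair with their seed, bases 2 to 8. In skeletal muscle a small set, miR-1, miR-133a, miR-133b, miR-206, miR-486 and miR-499, is switched on by the myogenic transcription factors, while families such as the miR-17/miR-92 cluster and miR-221/miR-222 are abundant in dividing cells and act on cell-cycle inhibitors. Entry into differentiation and its later course are known to use both groups.

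Of the 343 probes, 155 were measured above the control spots often enough to be tested, and 15 of them changed between day 1 and day 4 (9.68% of those tested). The 5 that rose (3.23%) were miR-1, miR-133a/miR-133b (1 probe for both), miR-206, miR-422b and miR-26a. The 10 that fell (6.45%) were miR-31, miR-222, miR-18, miR-17-5p, miR-20a on the brighter of its 2 probes, miR-182, miR-183, miR-15b, miR-296 and miR-292-5p. A change here is a p under 0.05 in limma's moderated test (two-sided), after Benjamini-Hochberg adjustment over the 155 probes. Changes ran from 1.43-fold to 3.36-fold, with 2 rises and 2 falls of at least 2-fold. Before adjustment, 31 probes had a p under 0.05.

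Sequences of miRNAs that changed are shown because they make plain which of those printed share a seed and so could pair with the same messages. They are the mature forms in RefSeq (GRCm38.p6), 5′ to 3′, with the seed in capitals, and the arm named by the probe. For miR-1, miR-422b and miR-133a no sequence is printed, so a seed that they share with another changed miRNA is not shown. The seed of miR-206 is carried by 3 mouse mature miRNAs, of which miR-206 alone is printed.
miR-206: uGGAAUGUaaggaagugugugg
miR-133b: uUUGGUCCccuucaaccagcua
miR-26a: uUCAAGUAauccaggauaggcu
miR-17-5p: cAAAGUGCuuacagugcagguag
miR-20a: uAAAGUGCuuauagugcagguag
miR-18: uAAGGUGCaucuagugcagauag
miR-222: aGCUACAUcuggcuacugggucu
miR-31: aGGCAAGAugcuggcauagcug
miR-182: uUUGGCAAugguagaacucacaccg
miR-183: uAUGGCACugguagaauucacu
miR-15b: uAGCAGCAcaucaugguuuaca
miR-296: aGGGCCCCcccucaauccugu
miR-292-5p: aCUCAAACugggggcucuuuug
Of these, miR-17-5p and miR-20a have one seed, and that of miR-18 differs from it by a single letter. Their genes lie in one run on chromosome 14, with mature miR-17-5p at chr14:115043684-115043706, miR-18 at chr14:115043867-115043889 and miR-20a at chr14:115044183-115044205, all on the plus strand. Mature miR-206 (chr1:20679055-20679076) and miR-133b (chr1:20682834-20682855) are likewise neighbours on the plus strand, though the probe that changed does not tell miR-133b from miR-133a.

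Several neighbours of these miRNAs were measured too, and 5 of them are shown for the contrast with their partners. They carry either the same seed, or another seed from the same hairpin or from a gene nearby.
miR-17-3p: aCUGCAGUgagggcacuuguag
miR-221: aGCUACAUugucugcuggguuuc
miR-16: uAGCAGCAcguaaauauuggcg
miR-290: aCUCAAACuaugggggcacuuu
miR-298: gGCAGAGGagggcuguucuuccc
The pairs miR-222 and miR-221, miR-15b and miR-16, and miR-292-5p and miR-290 each share a seed. The arms miR-17-5p and miR-17-3p come from one hairpin and share none, and miR-296 and miR-298, whose genes lie 379 bases apart on chromosome 2, share none either.

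The direction of every value below is likely rather than stated. The files do not name the dye of the sample, so the sample channel of each array was taken as the one farther from the same dye's channel on the proliferating arrays. That rule gave 2 red and 2 green arrays at day 1 and at day 4, which is the balance the labels describe. Before turning, arrays on the same side of the rule correlated at 0.652 to 0.864 across the 155 probes, and arrays on opposite sides at -0.641 to -0.122. After turning, day 1 arrays correlated with each other at 0.122 to 0.827 and day 4 arrays at 0.567 to 0.864. Turning every array the other way would reverse each rise and fall. In the authors' deposited table of log2 ratios, which holds 1 value per stage, the difference of day 4 and day 1 had the same sign as here for 15 of the 15 probes. Under this rule the side of day 1 array 4 rests on the muscle-specific miRNAs, since leaving them out of the distance put its sample in the other channel. The other 7 arrays of the comparison kept their side. Turned as here, day 1 array 4 correlated at 0.534 with the authors' day 1 values over the mouse-named probes, muscle-specific ones included. The 8 arrays ran from 0.461 to 0.789 against the authors' values of their own day. Without day 1 array 4, limma gave 11 changed probes, 10 of them among the 15. Arrays are numbered in file order and the numbers pair nothing across days.

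Values are log2 ratios to the proliferating pool, corrected for the dye, so that 0 is the level of the pool and 1 is 2 times that level. In a difference of day 4 and day 1, a shift that both channels of an array share drops out. A shift in the pool channel by itself does not. For 5 of the 15 changed probes (miR-206, miR-18, miR-20a, miR-292-5p and miR-296) the pool channel alone differed by more than the sample channel. Which kind of shift these were was not tested. Standard errors (SE) come from the limma fit over the 12 arrays of days 1, 2 and 4, and SDs are over the n = 4 arrays of a day.

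**Figure D1:**
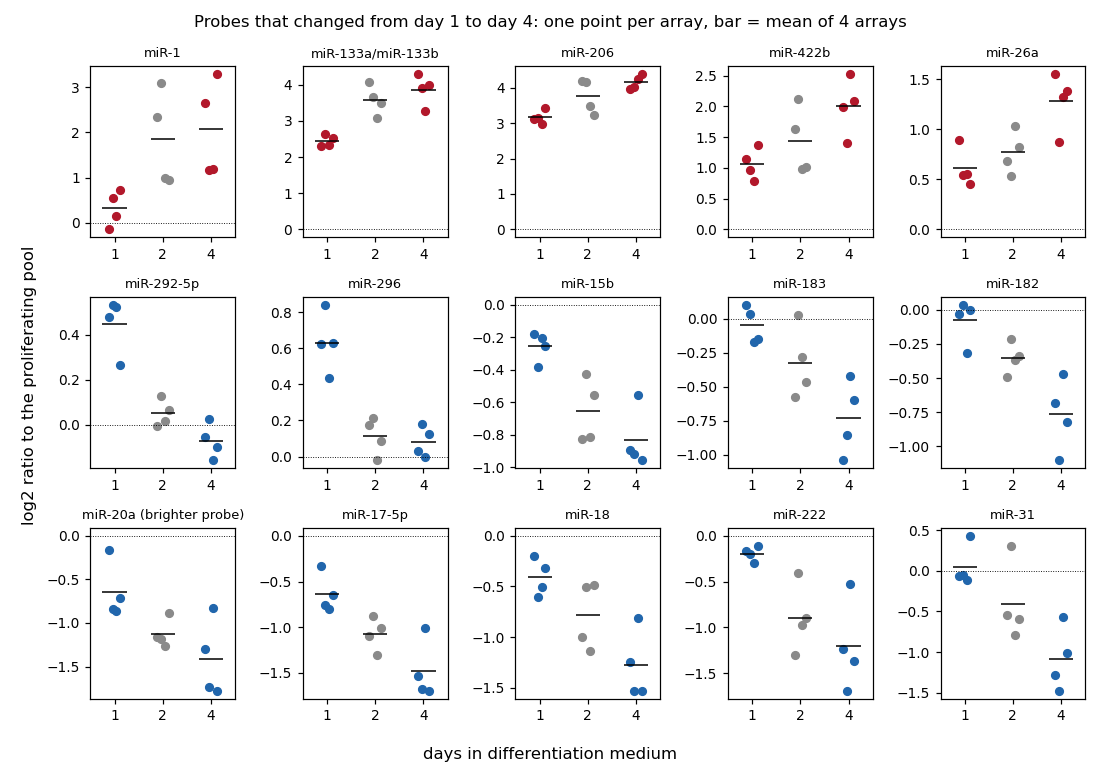
Log2 ratio to the proliferating pool (y axis, a scale of its own in each panel) against days in differentiation medium (x axis) for the 15 probes that changed, one point per array and a bar at the mean of 4 arrays, with day 2 in grey. The day 1 and day 4 points do not overlap in 13 of the 15 panels, the exceptions being miR-26a and miR-20a.

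Among the muscle-specific miRNAs miR-133a/miR-133b, the pair that represses serum response factor, had the smallest p of all probes. On the 4 day 1 arrays it stood at 2.31, 2.63, 2.34 and 2.53, and on the 4 day 4 arrays at 4.29, 3.91, 3.27 and 3.99. All day 4 arrays were above all day 1 arrays, with day 4 array 3 the lowest of its group. The mean went from 2.45 (SD 0.15) to 3.86 (SD 0.43), a rise of 1.41 log2 or 2.66-fold (SE 0.23, limma adjusted p = 0.0044). Much of the difference was present by day 2, when the mean was 3.57. This was the 1 probe of the 155 (0.645%) that limma called between day 1 and day 2, and between day 2 and day 4 it called 0 (0%), although 7 had an unadjusted p under 0.05.

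miR-206, which is nearly restricted to skeletal muscle and represses Pax7 and the DNA polymerase subunit Pola1, had the highest ratio to the pool of the muscle-specific miRNAs on both days. Its day 1 arrays stood at 3.11, 3.16, 2.97 and 3.44 and its day 4 arrays at 3.96, 4.03, 4.26 and 4.38. The groups were tight and did not overlap. miR-206 rose by a further 0.99 log2, 1.98-fold (SE 0.22, limma adjusted p = 0.0178), on top of a mean of 3.17 at day 1. The 2 channels of the ratio did not share that change evenly. In the sample channel alone miR-206 differed by 0.14 log2 (SE 0.23), and in the pool channel alone by -0.85 log2 (SE 0.29, unadjusted p = 0.0126, limma adjusted p = 0.993). Among the 15 changed probes it was the 1 whose pool channel passed an unadjusted p of 0.05. Its brightest spot on these arrays reached 38908 on a scale where the brightest spot of any array was at 65180. The part of the pool channel in this rise was not tested.

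miR-1, which represses the histone deacetylase Hdac4 and promotes differentiation, had the largest rise and the largest SE of the 155 probes. The rat probe for miR-1, given below, stood higher on day 1 than the mouse probe. On the mouse probe the day 1 arrays stood at -0.14, 0.55, 0.16 and 0.74, close to the pool, and the day 4 arrays at 2.64, 1.17, 1.20 and 3.29. The groups did not overlap, but day 4 arrays 2 and 3 lay well below arrays 1 and 4. The rise was 1.75 log2, 3.36-fold (SE 0.52, limma adjusted p = 0.0477), with an SD of 1.06 at day 4. miR-1 was above the control spots in the sample channel on all 4 arrays of each day, and in the pool channel on 1 of 4 at day 1 and 2 of 4 at day 4, so the ratio has a denominator near background. In the sample channel alone it differed by 1.73 log2 (SE 0.38, limma adjusted p = 0.0907).

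The other 2 muscle-specific miRNAs tested did not pass. miR-499, encoded in an intron of the myosin gene Myh7b, was above the control spots on 0 of 4 arrays at day 1 and 3 of 4 at day 4. Its day 1 signal is therefore only a bound, and it entered the test through day 4 alone, with 1 of 4 arrays at day 2. Its mean own-channel log2 intensity was 7.68 at day 4 against a measured 6.98 at day 1 (limma adjusted p = 0.655 in that channel). No fold is given. Its ratio to the pool stood 0.68 log2 higher (SE 0.27, limma adjusted p = 0.147). miR-486, encoded in Ank1, stood 0.06 log2 apart (SE 0.17, adjusted p = 0.910). It was above the control spots on 1 of 4 arrays at day 1, 2 of 4 at day 2 and 3 of 4 at day 4. It too entered the test through day 4 alone. Its sample channel alone differed by 0.97 log2 (SE 0.47) and its pool channel alone by 0.91 log2 (SE 0.47). The list as a whole had a median difference of 0.99 log2 over 5 tested members, beside 0.01 log2 over all 155 probes. Because the muscle-specific miRNAs set the side of day 1 array 4, the list was not independent of how that array was turned. Without it miR-133a/miR-133b and miR-206 still passed and miR-1 did not.

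A second group of rises came from miRNAs tied to muscle differentiation more broadly. miR-422b is the older name of miR-378-3p, which lies in an intron of Ppargc1b and represses the myogenic inhibitor MyoR. Its day 1 arrays stood at 1.15, 0.97, 0.79 and 1.37 and its day 4 arrays at 1.99, 1.40, 2.52 and 2.08, so the highest day 1 array and the lowest day 4 array nearly touched. It rose by 0.93 log2, 1.90-fold (SE 0.27, limma adjusted p = 0.0477). miR-26a, which represses the histone methyltransferase Ezh2, stood at 0.89, 0.55, 0.56 and 0.45 on day 1 and at 1.55, 0.87, 1.33 and 1.38 on day 4. Day 4 array 2 and day 1 array 1 overlapped, and the other arrays were apart. miR-26a rose by 0.67 log2, 1.59-fold (SE 0.18, limma adjusted p = 0.0280), and unlike miR-133a/miR-133b its day 2 mean of 0.77 stayed near that of day 1 (0.61). That contrast in course was not tested between probes.

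Of 20 tested members of this broader list, 2 rose and 2 fell, beside 5 (3.23%) and 10 (6.45%) of all 155. The median difference of the list, 0.08 log2, changed sign in 3 of 28 alternatives. The falls were miR-31 and miR-222. miR-31, a repressor of the myogenic factor Myf5, had the largest fall of all probes and a bright signal. It stood at -0.07, -0.05, -0.12 and 0.43 on day 1, at the level of the pool, and at -1.28, -1.48, -0.56 and -1.01 on day 4. The groups did not overlap, with day 1 array 4 far above its group. miR-31 fell by 1.13 log2, 2.19-fold (SE 0.25, limma adjusted p = 0.0178).

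miR-222 and miR-221, which share a seed and repress the cell-cycle inhibitor p27, lie together on the X chromosome. miR-222 was tight at day 1, at -0.17, -0.20, -0.29 and -0.11, and spread at day 4, at -1.23, -1.69, -0.53 and -1.36. The groups did not overlap, and day 4 array 3 was the closest to day 1. miR-222 fell by 1.01 log2, 2.01-fold (SE 0.24, limma adjusted p = 0.0178). miR-221 differed in the same direction by -0.55 log2 (95% interval -0.92 to -0.17, adjusted p = 0.0683) and did not pass, with overlapping groups.

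**Figure D2:**
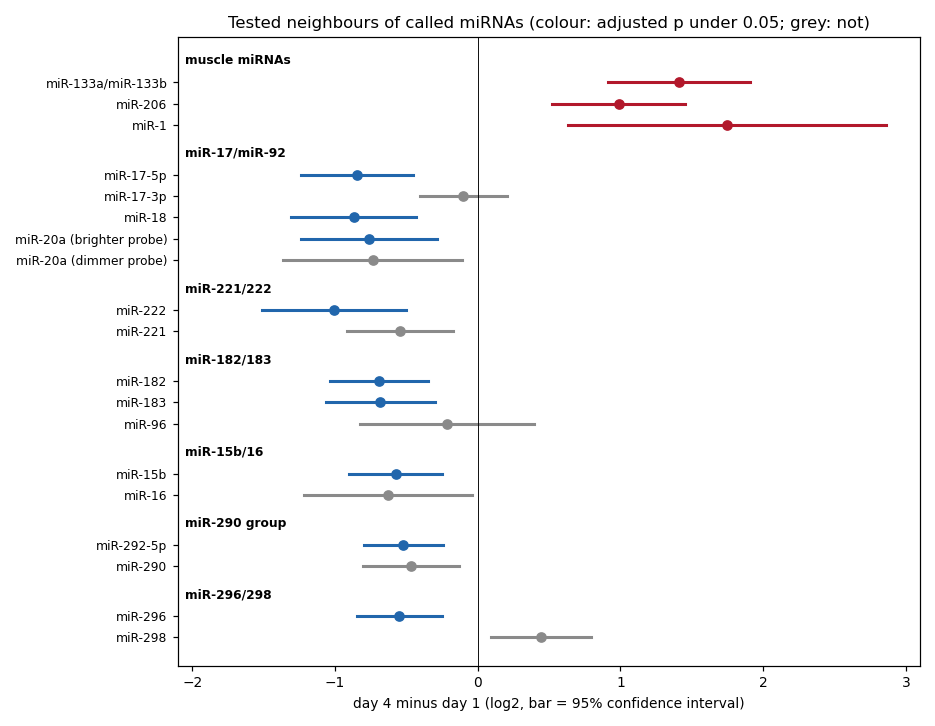
Difference of day 4 and day 1 (x axis, log2, point with 95% confidence interval) for miRNAs that changed and tested neighbours of theirs, grouped by genomic cluster except for the muscle-specific group, in colour where limma's adjusted p was under 0.05 and in grey where it was not. In the miR-17/miR-92 cluster miR-17-3p sits near 0 beside its 5p arm, and miR-298 lies on the other side of 0 from miR-296.

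The miR-17/miR-92 cluster, whose transcription follows Myc and E2F and whose products favour proliferation, gave 3 of the 10 falls. miR-17-5p stood at -0.33, -0.76, -0.80 and -0.65 on day 1 and at -1.54, -1.67, -1.01 and -1.70 on day 4. It was already below the pool at day 1 and fell by a further 0.84 log2, 1.80-fold (SE 0.18, limma adjusted p = 0.0178), with no overlap. miR-18 stood at -0.20, -0.60, -0.51 and -0.32 and then at -1.24, -1.53, -0.81 and -1.53. It fell by 0.87 log2, 1.83-fold (SE 0.20, limma adjusted p = 0.0178), again without overlap and with day 4 array 3 the least changed.

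miR-20a was spotted as 2 probes. The brighter (mean log2 intensity 11.0) fell by 0.76 log2 (SE 0.22, limma adjusted p = 0.0477) and the dimmer (9.36) stood 0.73 log2 lower (SE 0.29, adjusted p = 0.155) without passing. On both probes 1 array of day 4 overlapped day 1, which was day 4 array 3. miR-17-3p, the other arm of the miR-17 hairpin, differed by -0.10 log2 (95% interval -0.40 to 0.20, adjusted p = 0.807), and the difference between both arms was not tested. Of 14 probes for the cluster and its paralogues 7 were tested, 3 fell and 0 rose, beside 10 (6.45%) and 5 (3.23%) of all 155. The median difference of the 7 was -0.73 log2. That median was -0.10 log2 without the detection filter and -0.15 log2 with the filter on mean intensity, and -0.32 log2 in the sample channel alone. The probes for miR-19a, miR-19b and miR-92 were not among those tested.

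miR-182 and miR-183, which come with miR-96 from one cluster on chromosome 6 and are known for FoxO repression and sensory cells, fell together. miR-182 stood at -0.03, 0.04, -0.32 and 0.00 on day 1 and at -0.68, -1.10, -0.47 and -0.82 on day 4. It fell by 0.69 log2, 1.61-fold (SE 0.16, limma adjusted p = 0.0178), without overlap. miR-183 fell by 0.68 log2 (SE 0.18, adjusted p = 0.0280), also without overlap, and was above the control spots on 3 of the 4 day 4 arrays. miR-96 stood 0.21 log2 lower with an interval from -0.82 to 0.40 (adjusted p = 0.807), and was detected on 3 of 4 arrays at day 1 and 2 of 4 at day 4.

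miR-15b, of a family that restrains cyclins and Bcl2, stood at -0.18, -0.38, -0.21 and -0.25 on day 1 and at -0.89, -0.92, -0.55 and -0.96 on day 4. The groups did not overlap, with day 4 array 3 well above the rest of its group. miR-15b fell by 0.57 log2, 1.49-fold (SE 0.15, limma adjusted p = 0.0280), and was above the control spots on 3 of the 4 day 4 arrays. miR-16, its neighbour 67 bases away on chromosome 3, which also has a copy on chromosome 14, stood 0.63 log2 lower with a wider error (SE 0.27, adjusted p = 0.206). Its groups did not overlap. miR-15a differed by 0.09 log2 (SE 0.17, adjusted p = 0.879). Of the 3 family members tested, 1 fell and 0 rose, beside 10 (6.45%) and 5 (3.23%) of all 155.

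The remaining falls were small and had started above the pool. miR-292-5p, from a cluster best known in embryonic stem cells, stood at 0.48, 0.53, 0.52 and 0.26 on day 1 and at -0.05, 0.03, -0.16 and -0.10 on day 4. It returned to the level of the pool, a fall of 0.52 log2, 1.43-fold (SE 0.13, limma adjusted p = 0.0240). miR-290, of the same cluster and seed, stood 0.47 log2 lower (SE 0.16, adjusted p = 0.0822) with no overlap, and miR-291a-5p/miR-291b-5p stood 0.06 log2 apart (SE 0.13, adjusted p = 0.902). The 3p arms of this cluster, which carry its best-known seed, were not among the tested probes. The probes for miR-292-5p and miR-290 were bright, with mean log2 intensities of 12.8 and 13.1 beside 12.4 for miR-206. In the sample channel alone miR-292-5p differed by -0.24 log2 (SE 0.28). Whether these probes also bind other RNA was not tested.

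miR-296, beside the imprinted Gnas gene, stood at 0.62, 0.84, 0.43 and 0.63 on day 1 and at 0.03, 0.18, 0.00 and 0.12 on day 4. It fell by 0.55 log2, 1.46-fold (SE 0.14, limma adjusted p = 0.0240). Its neighbour miR-298 stood at -0.14, -0.03, 0.11 and -0.04 on day 1 and at 0.44, 0.64, 0.19 and 0.39 on day 4, a difference of 0.44 log2 with the opposite sign (SE 0.16, adjusted p = 0.114). The groups of miR-298 did not overlap, but it did not pass, and the difference between both neighbours was not tested. miR-546, the other tested neighbour of a changed miRNA, lies close to 1 of the 2 genes of miR-26a and stood at -0.28 log2 (SE 0.21, adjusted p = 0.555).

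Day 4 array 3 was the highest of its group in 8 of the 10 falls. Over the 15 changed probes the groups did not overlap in 13, and over all 155 they did not overlap in 23 (14.8%), 7 of them higher at day 4 (4.52%) and 16 lower (10.3%). Of the 10 that did not overlap and did not pass, the largest differences were miR-16, miR-135b, miR-125b, miR-671 and miR-290 on the lower side and miR-298, miR-185 and miR-500 on the higher side. miR-125b, a repressor of Igf2 in myoblasts, differed by -0.52 log2 (SE 0.19, adjusted p = 0.114), miR-671 by -0.50 log2 (adjusted p = 0.0822), miR-185 by 0.41 log2 (adjusted p = 0.139) and miR-500 by 0.31 log2 (adjusted p = 0.291). miR-135b was above the control spots on 1 of 4 arrays at day 1 and 0 of 4 at day 4, so its day 4 signal is only a bound and no fold is given.

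**Figure D3:**
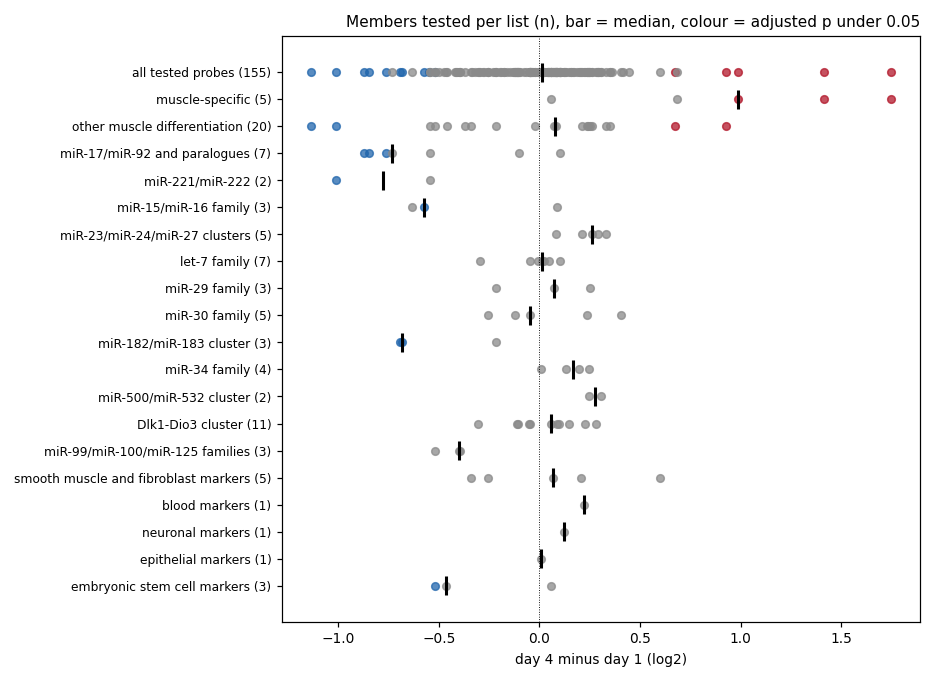
Difference of day 4 and day 1 (x axis, log2) for the tested members of each list (y axis, number tested in parentheses), with a bar at the median and colour where limma's adjusted p was under 0.05. The muscle-specific median is at 0.99, that of the miR-17/miR-92 list at -0.73, and that of all 155 probes at 0.01.

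Other families gave no call in limma, beside 15 calls over all 155 probes (9.68%), of which 31 had an unadjusted p under 0.05. Among 7 let-7 members, regulators of developmental timing, 0 passed, with differences from -0.29 log2 for let-7i to 0.10 log2. The clusters of miR-23, miR-24 and miR-27 had 5 members between 0.08 and 0.33 log2, and miR-23b, with the smallest p, stood at 0.29 log2 (SE 0.16, adjusted p = 0.339). The miR-29 family had 3 members between -0.21 and 0.25 log2 (miR-29c highest), the miR-30 family 5 between -0.25 and 0.40 log2 (miR-30b highest, adjusted p = 0.162), and the miR-34 family 4 between 0.01 and 0.25 log2 (miR-34a at 0.20). In the imprinted Dlk1-Dio3 cluster 11 of 43 probes were tested, none passed, and the lowest was miR-341 at -0.30 log2 (adjusted p = 0.371). In the miR-99, miR-100 and miR-125 families the 3 probes tested had differences between -0.52 and -0.39 log2, and 0 passed.

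Markers of other cell types were mostly not measurable. No endothelial (0 of 2 probes) or liver and pancreas marker (0 of 6) was tested, and 1 blood (miR-150), 1 neuronal (miR-124a) and 1 epithelial marker (miR-203) stood at 0.22, 0.12 and 0.01 log2 without passing. Of these, miR-203 was above the control spots on only 2 of 4 arrays at day 1 and 1 of 4 at day 4. It entered the test through day 2 alone (3 of 4). Of 5 tested smooth muscle and fibroblast markers 0 passed, beside 15 of all 155 probes (9.68%). Their differences ran from -0.34 to 0.60 log2 with a median of 0.07 that changed sign in 11 of 28 alternatives, and miR-143 was the highest at 0.60 log2 (SE 0.20, adjusted p = 0.0822). In bulk RNA, fewer cells of a kind and less RNA per cell cannot be told apart, and whether the share of fused cells moves with these values was not measured.

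The day 2 arrays lay inside the interval. For 15 of the 15 changed probes the day 2 mean was between those of day 1 and day 4, as it was for 78 of the 155 tested (50.3%). The same day 1 and day 4 arrays chose these 15, so the count is a description. limma found 0 of 155 probes (0%) off the straight line in time between day 1 and day 4, with 5 at an unadjusted p under 0.05. The smallest of these p values belonging to a changed probe was that of miR-133a/miR-133b, whose day 2 mean lay 0.65 log2 above the line (SE 0.21, adjusted p = 0.528).

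**Figure D4:**
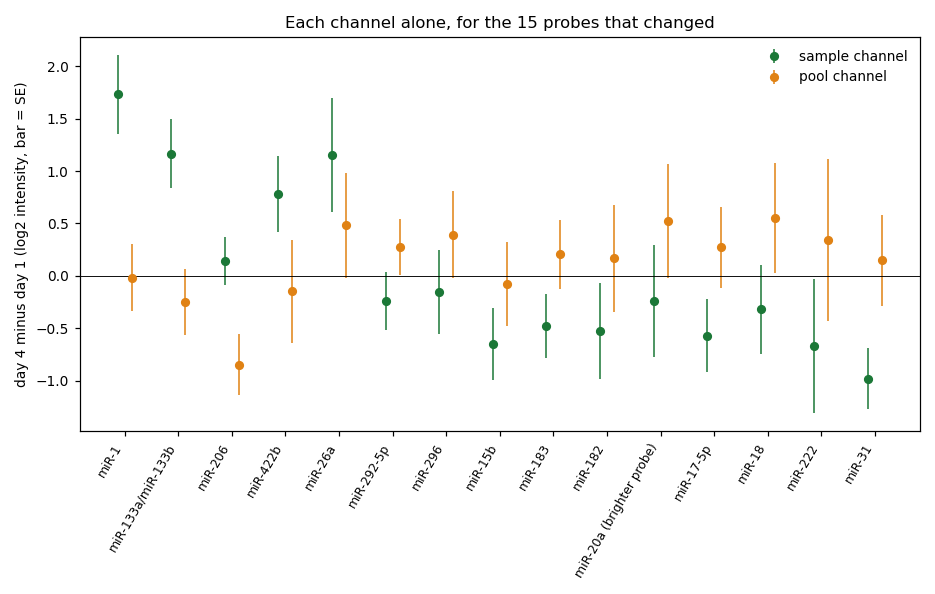
Difference of day 4 and day 1 in the sample channel and the pool channel taken alone (y axis, log2 intensity with SE) for the 15 probes that changed (x axis). For miR-1, miR-133a/miR-133b and miR-31 the sample-channel difference is the larger in size (1.73, 1.16 and -0.98), and for miR-206 that of the pool channel (-0.85), as it also is for miR-18, miR-20a, miR-292-5p and miR-296.

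Taken alone, neither channel passed for any of the 155 probes in limma. The sample channel gave 0 calls (0%) with 7 probes at an unadjusted p under 0.05, and the pool channel 0 calls (0%) with 4. The signs of the sample-channel differences matched those of the ratios in 15 of the 15. The ratios, which hold the sample channel, chose these 15, so the count is a description. For miR-206, miR-18, miR-20a, miR-292-5p and miR-296 the sample-channel difference was smaller in size than its SE. The SE of either single channel was larger than that of the ratio for 14 of the 15, miR-1 being the exception. Examples are miR-31 at -0.98 log2 (SE 0.29) and miR-133a/miR-133b at 1.16 log2 (SE 0.33) in the sample channel.

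Probes that name the same miRNAs in other species gave further measurements on the same arrays. Of all 292 tested probes without a mouse name, whatever their kind, 11 passed (3.77%). The zebrafish probe for miR-133c was among them, 1.19 log2 higher at day 4 (SE 0.27, limma adjusted p = 0.0204), and the primate miR-133a probe stood 1.11 log2 higher (SE 0.31, adjusted p = 0.0537). The insect probe for miR-1 stood 1.28 log2 higher (SE 0.35, adjusted p = 0.0537) and the rat probe 0.89 log2 higher (SE 0.55, adjusted p = 0.433), neither passing. The miR-1b probe of chicken and frog stood at 0.25 log2 (adjusted p = 0.586). On day 1 the rat probe was above the pool, at 0.92, 2.55, 0.70 and 2.01, and overlapped its day 4 arrays (2.87, 2.30, 1.07 and 3.49). The insect probe stood on day 1 at 0.28, 0.89, -0.07 and 0.84, and the miR-1b probe at -0.18, 0.68, 0.07 and 0.32. A probe for miR-18b of human and other species stood at -0.84 log2 (adjusted p = 0.0979), close to mouse miR-18, and one for miR-31 of chicken and others at -0.53 log2 (adjusted p = 0.0694), a smaller size than that of the mouse probe (1.13 log2 lower). The remaining probes were weak or of the other sign. Zebrafish miR-26b stood at 0.41 log2 (adjusted p = 0.263), pufferfish miR-15a at -0.19 log2 (adjusted p = 0.695), and the star arms of zebrafish miR-18b and miR-17a at -0.22 and 0.15 log2 (adjusted p = 0.633 and 0.590).

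The calls among probes without a mouse name also included ones with no known mouse counterpart. Of 65 plant probes tested 1 passed, of 23 virus probes 3, and of 46 unnamed miR-Plus probes 3, the largest of them at -1.05 log2. Of 114 probes of other vertebrates 4 passed. Besides zebrafish miR-133c these were human miR-498 (-0.65 log2), miR-373* (-0.65 log2) and miR-583 (0.55 log2), which name no changed mouse miRNA. Plant and virus probes ranged from -0.98 to 0.76 log2, a range that holds 8 of the 10 falls among the mouse probes, all but miR-31 and miR-222, and 1 of the 5 rises, miR-26a. The 6 small RNA control probes had a median of -0.32 log2 and ranged from -0.64 to 0.17 log2, with 4 lower at day 4 and 0 calls. U6snRNA2 (-0.64 log2, adjusted p = 0.0755), U6snRNA1 (-0.54 log2, adjusted p = 0.131) and SNORD2 (-0.45 log2, adjusted p = 0.213), named after their values were seen, had an unadjusted p under 0.05. The part of a shared shift of such probes in the mouse differences was not tested.

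**Figure D5:**
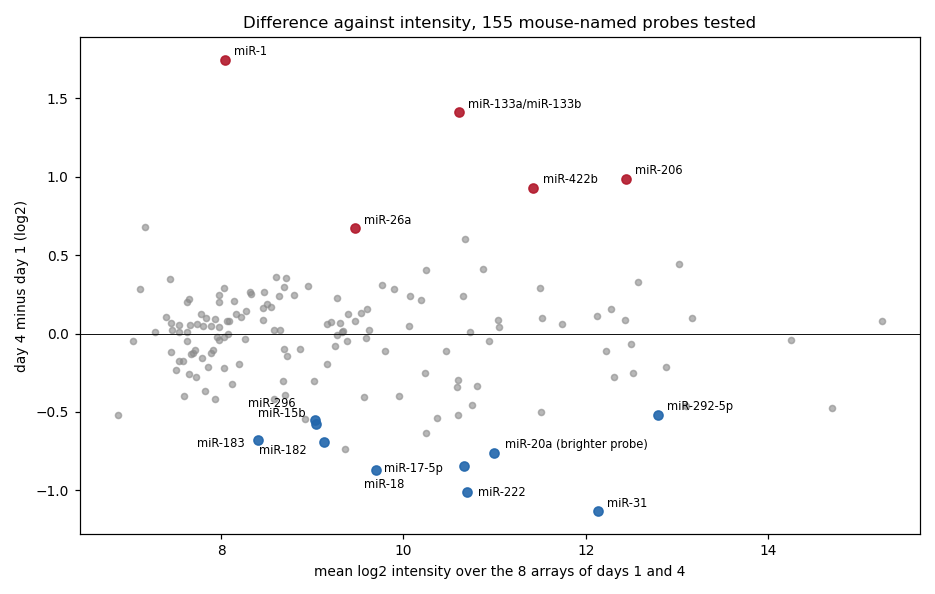
Difference of day 4 and day 1 (y axis, log2) against the mean log2 intensity over the 8 arrays (x axis) for the 155 tested mouse-named probes, in red where they rose, blue where they fell and grey where limma's adjusted p was not under 0.05. The 15 changed probes cover the range of intensity from miR-1 at 8.04 to miR-292-5p at 12.8.

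The number of calls depended on single arrays more than the differences themselves did. Without day 1 array 1 or 2, or without day 4 array 1 or 4, limma called 1 probe, miR-133a/miR-133b, while 15 of the 15 kept their direction and an unadjusted p under 0.05 in each of these fits, with adjusted p up to 0.178. With all 20 arrays of the series in the fit, 16 probes passed, 14 of them among the 15.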

How the data were processed

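Per the labels' protocols, TRIzol total RNA was labelled and hybridised beside a pool of proliferating RNA on 2-colour spotted arrays. The deposited files give, per the file headers, foreground and morphological background intensity per spot and channel, neither normalised. The authors' deposited table of log2 ratios, 1 column per sample, tracked the turned arrays with slopes of 0.819 to 0.858 and column medians of -0.0218 to 0.0172. Its processing is not given in the sources used here.

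From median intensities, limma 3.58.1 in R 4.3.3 applied normexp (offset 50) and global loess with weight 0 for controls, then averaged each probe's spots. Detection required a background-subtracted median above percentile 95 of that channel's Empty and negative-control spots on the array. A probe was tested when its sample channel passed on 3 of the 4 arrays of day 1, 2 or 4. Detected mouse probes per array numbered 113 to 180 in the sample channel and 107 to 196 in the pool channel. lmFit and eBayes used the 12 arrays of days 1, 2 and 4 with a dye term (8 residual and 6.05 prior degrees of freedom). The fit was tested on simulated data. The labels call the 4 replicates of a stage biological without naming cultures, so p-values measure the spread between these arrays, whose number limits the precision.

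The members, lists and naming rule were chosen with earlier results of these data known. Named were all changed probes, all tested muscle-specific members, up to 4 members of each other list by smallest p (1 where a list had no change), neighbours within 10 kb, and the 5 largest differences per direction without overlap. Alternatives covered background, foreground, normalisation, filters, arrays, dye term and channels, and list medians were recomputed under each. Probes without a mouse name, whatever their kind, were adjusted over their own 292.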

Additional observations from a re-analysis of the deposited data

Results flagged for a closer look

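In 4 of 126 groups of 4 arrays, 1 array stood far from the other 3 (Dixon's 95% criterion), which chance alone gives in about 1 group in 20. For miR-31 at day 1, array 4 was the highest at 0.43, with the nearest other array at -0.05. It is the array whose side rests on the muscle-specific miRNAs, and without it miR-31 still passed. For miR-15b at day 4, array 3 was the highest at -0.55, nearest -0.89. For miR-125b at day 4, array 2 was the lowest at -1.01, nearest -0.61. For miR-124a at day 4, array 2 was the lowest at -0.36, nearest 0.08.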

How the results depend on the processing

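All 15 probes kept their direction in all 28 alternatives, and 0 of them passed in all 28. limma called 6 probes (0 higher, 6 lower) after scale normalisation, 7 (3 lower) with print-tip loess, 9 (4 lower) with median centring, 7 (2 higher, 5 lower) without the detection filter, 1 (1 higher, 0 lower) without the dye term and 0 (0 and 0) in the sample channel alone. The higher calls were 3 with an offset of 0, plain subtraction, the intensity filter or a robust prior, and 2 without day 1 array 4. Leaving out each array in turn gave 1 to 16 calls, 1 to 6 of them higher and 0 to 11 lower. The count was 1 without day 1 array 1 or 2 or day 4 array 1 or 4, and the higher calls were 2 or 3 without day 1 array 3 or 4, day 2 array 1 or day 4 array 3. The cause was not tested. miR-133a/miR-133b was lost only after scale normalisation and in the sample channel alone. No probe left the line through day 2 under any alternative run, and probes without a mouse name gave 1 call without the filter and 19 with all 20 arrays. The pool channel alone, chosen after seeing the data, gave 0 calls.

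Signs turned only for probes that had not passed. These were miR-203 with plain subtraction (-0.016), with mean foreground (-0.051) and in the sample channel alone (-0.067), and, with print-tip loess, miR-486 (-0.063) and miR-15a (-0.029). In the sample channel alone miR-23b (-0.088), miR-34a (-0.024), miR-124a (-0.47), miR-185 (-0.011) and miR-546 (0.20) also turned. Over the fits without 1 array, values ran from -0.096 to 0.18 for miR-486, -0.0031 to 0.22 for miR-15a, -0.44 to 0.0100 for miR-96, -0.019 to 0.29 for miR-124a and -0.098 to 0.12 for miR-203. Over all 28 alternatives the list median ran from 0.83 to 1.41 for muscle-specific miRNAs, -0.96 to -0.10 for the miR-17/miR-92 list, -0.67 to -0.0100 for the miR-15/miR-16 family, -0.23 to 0.22 for the broader muscle list and -0.23 to 0.35 for smooth muscle and fibroblast markers. No paired analysis was possible because the labels give no replicate numbers that the arrays of different days share. Probes near the control spots, as miR-1 in the pool, are limited by signal over background.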
